A study of Mus musculus with 14 samples.

Results

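The stellate cell identity and quiescence genes are 9 genes chosen by name: Des, Vim, Gfap, Lrat, Pdgfra, Pdgfrb, Reln, Hand2 and Rgs5. They were matched by gene symbol to a table of cultured mouse pancreatic stellate cells (PSCs), which lists 16481 genes, and to a table of mouse livers with 54532 genes. The liver table holds all 9. The PSC table holds 7, and Gfap and Lrat are not listed in it.

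Stellate cells are mesenchymal cells of the pancreas and liver. In a healthy organ they are quiescent and store vitamin A as retinyl esters in lipid droplets, and they touch the walls of small vessels. After injury they become activated, lose these droplets, take on a contractile phenotype and lay down collagen. Desmin (Des), vimentin (Vim) and glial fibrillary acidic protein (Gfap) are type III intermediate filament proteins used to recognise these cells. Lecithin retinol acyltransferase (Lrat) makes the retinyl esters. Pdgfra and Pdgfrb are the receptor tyrosine kinases for platelet-derived growth factors, which drive stellate cell proliferation and migration. Reelin (Reln) is a secreted matrix glycoprotein, Hand2 is a basic helix-loop-helix transcription factor of mesenchyme, and Rgs5 is a regulator of G protein signaling that is typical of pericytes.

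RNA-Seq was performed on 6 PSC libraries and 8 liver libraries. The PSCs came from 3 preparations of mouse PSCs grown for 3 days on Matrigel in medium with 5% serum. Each preparation was given the PIEZO1 agonist Yoda1 at 25 μM (3 libraries) or its solvent DMSO (3 libraries), for 24 hours by the Methods and 72 hours by a supplemental legend. PIEZO1 is a calcium-permeable channel opened by mechanical force. The livers were taken from 8- to 12-week-old mice of both sexes on day 20 after 100000 KPCY cells, a mouse pancreatic tumor line that expresses a yellow fluorescent protein, had been injected into the tail of the pancreas. All livers were therefore livers of tumor-bearing mice, and none came from a tumor-free mouse. They fall into 2 WT, 3 TRPV4-KO and 3 GSK219 libraries. The WT mice carried floxed Piezo1 alleles (Piezo1 fl/fl), TRPV4-KO mice lacked TRPV4 in all host tissues while the tumor cells kept it, and GSK219 mice were WT mice given the TRPV4 antagonist GSK2193874 daily by gavage at 10 mg/kg. Whether the other mice received the vehicle is not stated in the sources used here. PSC libraries held between 27312894 and 39070539 reads on listed genes, and liver libraries between 15567031 and 17395299.

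Some facts of the libraries bear on every comparison. Counts of Trpv4, the deleted gene, were 43 and 53 in WT livers, 15, 5 and 23 in TRPV4-KO livers, and 20, 30 and 36 in GSK219 livers, so the TRPV4-KO livers did not reach the WT counts but were not at 0, and which exons were deleted was not analysed here. Sex is not given in the labels. Replicate 3 of TRPV4-KO, replicate 3 of GSK219 and replicate 1 of WT had Xist reads, from the RNA that coats the inactive X chromosome of females, with 13681 to 15754 Xist counts, against 0 to 7 in the other 5. Y-linked counts were 2444 to 2803 in those 5, called livers with Y-linked reads here, and 56 to 252 in the 3 livers with Xist reads, with the most in TRPV4-KO replicate 3. Marker lists showed other cell types in the PSC cultures. Values per length are given as TPM, the share of transcripts that a gene takes in its library, computed from recovered reads and the gene lengths of the liver table. In TPM, the 6 islet hormone and granule genes summed to between 1327 and 1584 with DMSO and between 1240 and 1837 with Yoda1, led by Ins2, an insulin gene. The acinar list, led by the protease gene Ctrb1, summed to between 117 and 663 with DMSO and between 159 and 1497 with Yoda1, with 9 of 10 genes listed. The duct or tumor epithelial list summed to 1123 to 1510 TPM with DMSO and 2053 to 3231 TPM with Yoda1. Spp1 led it, at means of 521 and 1876 TPM. The mesothelial list, over 5 genes with a length, summed to 465 to 792 TPM with DMSO and 910 to 951 TPM with Yoda1. The epithelial adhesion gene Epcam was at 160 to 252 TPM with DMSO and 132 to 252 TPM with Yoda1, and the keratin Krt18 at 1767 to 2352 and 1536 to 3590 TPM. For endothelial cells, 7 of 9 markers were listed, with sums of 23.3 to 28.6 TPM with DMSO and 22.9 to 27.8 TPM with Yoda1. For leukocytes, 6 of 10 markers were listed, with sums of 34.1 to 36.6 and 39.1 to 80.2 TPM. The macrophage gene Cd68 was the highest of them, with means of 19.7 TPM with DMSO and 38.6 TPM with Yoda1. The macrophage genes Adgre1 and Clec4f were not listed. In bulk RNA, fewer cells of a type and less RNA per cell cannot be told apart.

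The windows around the start sites of 4 members are shown as examples. Vim was called with Yoda1 and Pdgfra with the preparation as a block, while Lrat and Rgs5 were called between livers with Xist and with Y-linked reads, a comparison added after the data had been examined. Other members called under some settings are not shown. Lrat was not called between WT and TRPV4-KO livers. They run from 250 bases before to 50 bases after the start in RefSeq, on GRCm38.p6, 5′ to 3′ along the gene, with motif matches in capitals. Vim is at chr2:13574061-13574360 on the plus strand, Pdgfra at chr5:75152001-75152300 on the plus strand, Lrat at chr3:82903925-82904224 on the minus strand and Rgs5 at chr1:169655251-169655550 on the plus strand. The Lrat gene itself spans chr3:82892579-82903973 and Rgs5 spans chr1:169655501-169695813. Vim spans chr2:13573927-13582826 in the liver annotation, so the Vim window, set by the RefSeq start, lies wholly inside that span.
Vim: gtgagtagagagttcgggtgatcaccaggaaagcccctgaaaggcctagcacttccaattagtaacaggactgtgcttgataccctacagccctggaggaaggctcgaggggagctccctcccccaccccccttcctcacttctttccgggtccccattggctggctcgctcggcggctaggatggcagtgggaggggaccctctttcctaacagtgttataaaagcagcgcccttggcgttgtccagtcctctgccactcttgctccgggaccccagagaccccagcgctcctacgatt
Pdgfra: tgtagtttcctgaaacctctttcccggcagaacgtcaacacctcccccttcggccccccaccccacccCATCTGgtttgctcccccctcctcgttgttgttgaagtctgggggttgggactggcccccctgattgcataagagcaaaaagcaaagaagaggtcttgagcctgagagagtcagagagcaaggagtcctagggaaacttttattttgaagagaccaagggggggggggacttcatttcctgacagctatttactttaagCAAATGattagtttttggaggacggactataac
Lrat: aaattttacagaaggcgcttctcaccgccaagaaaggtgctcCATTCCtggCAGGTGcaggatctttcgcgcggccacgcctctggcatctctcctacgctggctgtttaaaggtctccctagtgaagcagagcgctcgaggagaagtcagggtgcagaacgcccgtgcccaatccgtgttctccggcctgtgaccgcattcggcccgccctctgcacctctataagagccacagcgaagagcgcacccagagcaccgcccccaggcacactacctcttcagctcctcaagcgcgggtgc
Rgs5: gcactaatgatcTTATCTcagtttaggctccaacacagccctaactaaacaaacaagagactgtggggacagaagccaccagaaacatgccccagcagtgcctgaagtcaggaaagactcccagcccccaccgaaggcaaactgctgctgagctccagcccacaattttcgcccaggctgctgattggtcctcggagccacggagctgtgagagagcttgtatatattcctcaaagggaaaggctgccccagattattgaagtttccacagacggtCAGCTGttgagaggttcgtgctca

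Windows for 8 of the 9 members were searched on both strands for 7 motifs. The E-box, CANNTG, the class of site bound by Hand2 and its partners, was found in 6 of the 8 windows, and 72.3% of all 32851 promoter windows hold it. The CArG box, a site of serum response factor, was found in 0 of the 8, against 1.63% of all windows, and the AP-1 letters, TGANTCA, in 0 of the 8, against 7.81%. The TEAD letters, GGAATG, were found in 1, that of Lrat, 208 bases before the start, and 14.7% of all windows hold them. RBPJ letters, TGGGAA, were found in Reln, Hand2 and Gfap (25.6% of all windows). A match to AGATAA, read by GATA factors, was found in Rgs5 and Hand2 (11.2%), and NFAT letters, GGAAAA, in Des and Hand2 (23.4%). Matches of different motifs may overlap. The Vim window held none of the 7 motifs. These matches are a description of letters and not of bound sites.

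In cultured PSCs the members spanned a wide range of levels. Vim was the highest, at 2135 ± 248 TPM with DMSO and 1429 ± 144 TPM with Yoda1 (SD, n = 3), and ranked between place 36 and place 75 of the 16286 genes with a length. Des, Pdgfrb, Pdgfra and Hand2 followed, with means over the 6 libraries of 105, 93.1, 55.1 and 53.6 TPM. The ranges of neighbours in this order overlapped, while Des and Pdgfrb lay above Hand2 in all 6 libraries. Rgs5 lay below all of them in every library, at 1.92 to 3.68 TPM. Reln was the lowest, at 0.0282 to 0.175 TPM, from 5 to 38 reads per library. Gfap and Lrat were not listed, and the lowest total of a listed gene was 9 reads over the 6 libraries.

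With Yoda1, Vim fell, and in each preparation Pdgfra was higher and Pdgfrb lower, while Des and Hand2 differed by at most 0.07 on the log2 scale. All 7 listed members passed the filter on low values. By limma with the deposited values, 1 of the 7 passed an adjusted p under 0.05, and it was lower with Yoda1, where 1.15% of the 15145 genes tested were called lower and 1.20% higher. Same-numbered libraries came from the same preparation and deviated together. With the preparation as a replicate block, 2 of the 7 passed, Vim and Pdgfra, against 3.99% of all genes. The median log2 difference of the 7 members was 0.07, against -0.01 over all genes tested.

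Among the filament genes, Vim had deposited values, which are reads divided by a size factor of the library, of 99235, 102082 and 87569 with DMSO and 63974, 59520 and 54463 with Yoda1. All 3 Yoda1 libraries lay below all 3 DMSO libraries. The log2 difference was -0.70 (standard error, SE, 0.10, adjusted p = 0.0359 by limma), and -0.70 (SE 0.06, adjusted p = 0.0373) with the block. Leaving out any single library kept the difference between -0.77 and -0.64 but moved the adjusted p by limma to between 0.0611 and 0.147, while the number of genes called fell from 355 to between 0 and 116. Des, the muscle-type filament, stood at 4639, 3172 and 2729 with DMSO and 4651, 3336 and 2995 with Yoda1. Each preparation kept nearly its own level, and the treatments overlapped. The log2 difference of Des was 0.07 (95% confidence interval -0.57 to 0.71, adjusted p = 0.898 by limma), and -0.10 to 0.24 was the interval with the block. Of the 12 other intermediate filament and linker genes tested, none was called in either direction (0 of 12 by limma, 1 of 12 at an unadjusted p under 0.05, where 20.9% of all genes were). The nuclear lamin gene Lmna had the smallest p, with a log2 difference of -0.48 (SE 0.11, adjusted p = 0.0926 by limma), and it was followed by the linker gene Plec at -0.15 (SE 0.06, adjusted p = 0.245 by limma).

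**Figure D1:**
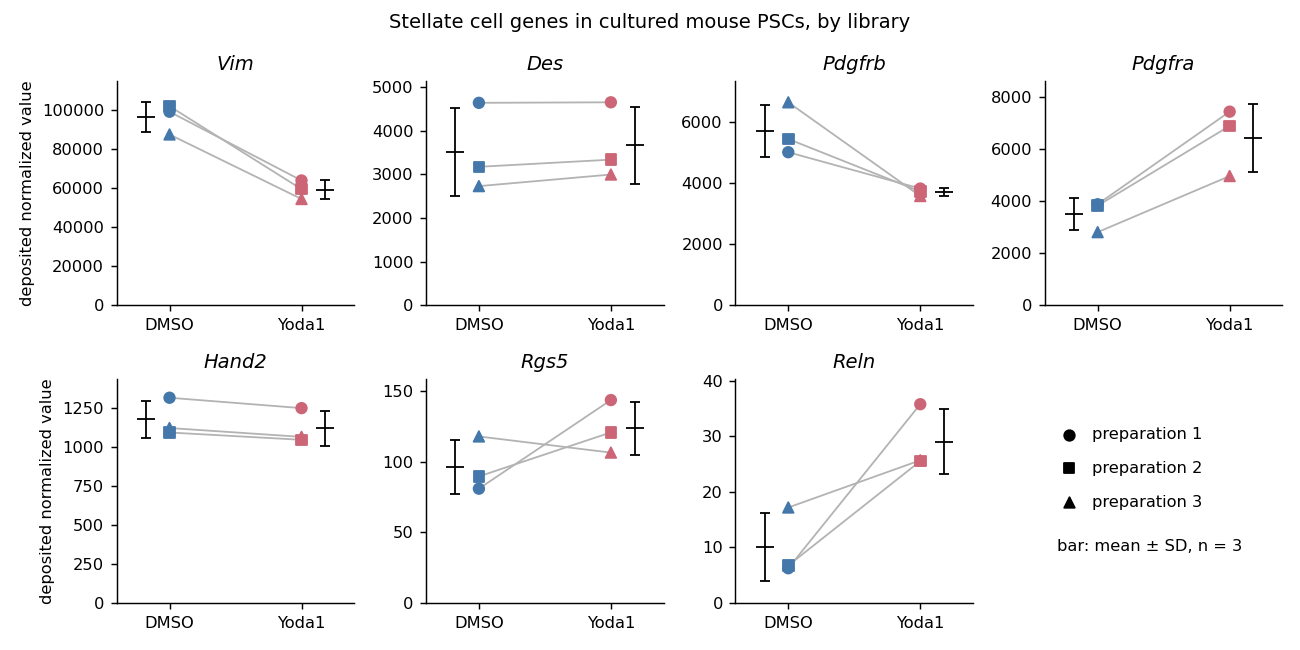
Deposited normalized values (y axis, linear, from 0) of the 7 listed members in PSCs with DMSO or Yoda1. Points are libraries, grey lines join the libraries of a preparation, and bars give mean ± SD (n = 3). Pdgfra was higher and Vim and Pdgfrb were lower with Yoda1 in each of the 3 preparations, while Des and Hand2 stayed close to the level of their preparation.

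Of the PDGF receptors, Pdgfra had values of 3874, 3819 and 2803 with DMSO and 7428, 6880 and 4956 with Yoda1. The treatments did not overlap. The log2 difference was 0.87 (SE 0.21, adjusted p = 0.0973 by limma), and with the preparation as a block the SE was 0.06 and the adjusted p 0.0355. Pdgfrb was at 5015, 5448 and 6651 with DMSO and at 3825, 3728 and 3578 with Yoda1, again without overlap. Its log2 difference was -0.61 (SE 0.12, adjusted p = 0.0665 by limma, 0.0798 with the block). On the recovered reads it was called by edgeR (adjusted p = 0.0318), which called 4.58% of all genes, and by DESeq2 (adjusted p = 5.4e-05), which called 10.1%. Groups did not overlap for 2 members that were higher with Yoda1, Pdgfra and Reln, where 14.9% of all genes tested separated in that way, and Reln passed the filter only with its Yoda1 libraries, so its separation supports nothing. Groups also did not overlap for 2 members that were lower, Vim and Pdgfrb, where 15.1% did.

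The log2 ratio of Pdgfrb to Pdgfra, in deposited values, was 0.37, 0.51 and 1.25 with DMSO and -0.96, -0.88 and -0.47 with Yoda1. The ratio was above 0 in every DMSO library and below 0 in every Yoda1 library, in values not corrected for gene length. The means were 0.71 ± 0.47 and -0.77 ± 0.26 (SD, n = 3), and their difference was -1.48, with a range over the preparations of -1.72 to -1.33. An exact two-sided permutation test gave p = 0.1, which is the smallest p that 3 libraries against 3 can give. That test did not use the pairing of libraries by preparation. Per length the ratio in TPM was 0.942, 0.992 and 1.32 with Yoda1, so that replicate 3 had more Pdgfrb than Pdgfra, against 2.37, 2.61 and 4.34 with DMSO. The PDGF ligands were tested as well, and 0 of 4 were called by limma, with 2 of 4 at an unadjusted p under 0.05. All 4 had negative log2 differences, with a median of -0.62. Pdgfc was at -0.82 (SE 0.16, adjusted p = 0.0681 by limma) and Pdgfd at -0.76 (SE 0.17, adjusted p = 0.0811 by limma), and with the block 1 of the 4 was called lower.

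Reln, the secreted matrix protein, was near the bottom of the table. Its reads numbered 5, 6 and 17 with DMSO and 38, 31 and 32 with Yoda1, and its deposited values were 6.23, 6.73 and 17.2 against 35.7, 25.5 and 25.7. The treatments did not overlap, and DMSO replicate 3 was the highest of its group. The log2 difference was 1.56 (SE 0.39, adjusted p = 0.106 by limma), on a scale with a pseudocount of 1 that understates changes of low genes, and 0.99 with a pseudocount of 10. The gene passed the filter, a value of 10 or more in 3 libraries, only with its Yoda1 libraries, where it was high, so no call on it is taken as support. Without DMSO replicate 3 it was 1.99 (adjusted p = 0.0493 by limma). The reelin receptors Vldlr and Lrp8 and the adaptor Dab1 had log2 differences between -0.06 and 0.09, and 0 of the 3 was called by limma, with 0 of 3 at an unadjusted p under 0.05.

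Hand2 and Rgs5 were not called with Yoda1. Hand2 had values of 1317, 1094 and 1122 with DMSO and 1250, 1047 and 1066 with Yoda1, a log2 difference of -0.07 (95% confidence interval -0.35 to 0.21, adjusted p = 0.75 by limma). Of the 8 genes tested among its partners and neighbours, 0 were called and 0 had an unadjusted p under 0.05 by limma. They lay between -0.15 and 0.06, with the E-protein gene Tcf3 at -0.10 (SE 0.13, adjusted p = 0.704 by limma) and Meis2, a homeobox gene, at 0.06 (SE 0.07, adjusted p = 0.656 by limma). Rgs5 was at 81.1, 89.7 and 118 with DMSO and at 144, 121 and 107 with Yoda1. It was higher in 2 preparations and lower in the third, with a log2 difference of 0.37 (SE 0.18, adjusted p = 0.31 by limma). Of 10 other RGS genes tested, 0 were called by limma (4 at an unadjusted p under 0.05, 3 called with the block), and Rgs16 had the smallest p, with a log2 difference of 0.95 (SE 0.19, adjusted p = 0.0719 by limma).

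**Figure D2:**
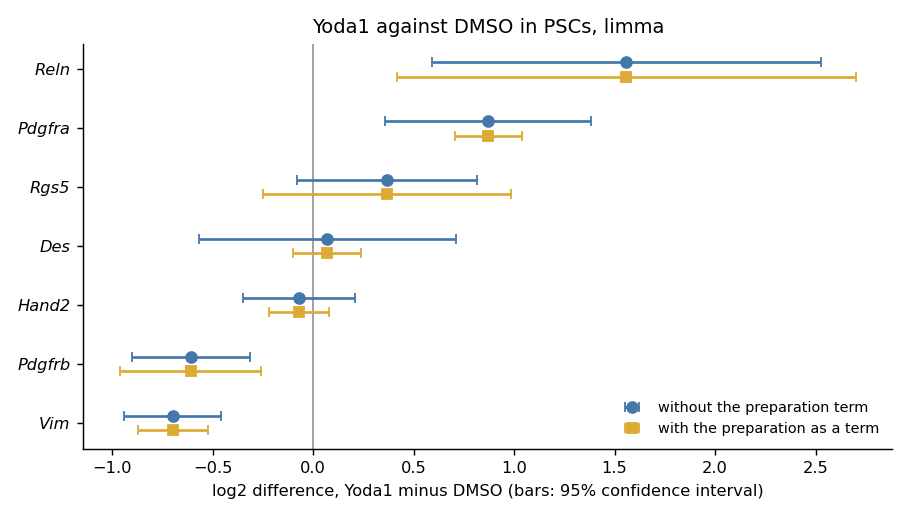
Log2 differences of the 7 listed members, Yoda1 minus DMSO (x axis), by limma without (circles) and with (squares) the preparation as a term. Bars are 95% confidence intervals. The term narrowed the intervals of Pdgfra, Des, Vim and Hand2, whereas those of Reln, Rgs5 and Pdgfrb became wider.

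Other genes of the stellate cell state were taken from lists fixed alongside the members. In the activation list, 4 of 14 genes tested were lower with Yoda1 and 0 were higher by limma, with a median log2 difference of -0.69. They were the collagen genes Col3a1 at -1.19 (SE 0.07, adjusted p = 0.0108 by limma) and Col1a1 at -0.85 (SE 0.10, adjusted p = 0.0315 by limma), and the contractile genes Tagln at -1.22 (SE 0.11, adjusted p = 0.0199 by limma) and Acta2, smooth muscle actin, at -1.70 (SE 0.24, adjusted p = 0.0383 by limma). In TPM, Acta2 ranged from 7257 to 8061 with DMSO and from 1710 to 3357 with Yoda1. Of the smooth muscle list, which also holds Acta2, 4 of 6 were lower by limma, with a median of -1.72, and 2 of 6 with the block. Among transcription factors linked to quiescence, 1 of 11 was higher and 0 were lower by limma. This was Klf4, a zinc finger factor, with a log2 difference of 0.90 (SE 0.14, adjusted p = 0.0469 by limma), and Pparg, the adipogenic nuclear receptor, had 0.51 (SE 0.12, adjusted p = 0.0977 by limma).

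The 20 retinoid genes tested had a median log2 difference of 0.19, and 13 were positive. By limma 10 had an unadjusted p under 0.05, where 20.9% of all genes had. Of the 20, 1 was called lower and 0 higher by limma. It was Aldh1a3, which makes retinoic acid from retinal, with deposited values of 575 ± 176 with DMSO and 98.5 ± 29.7 with Yoda1 (SD, n = 3) and a log2 difference of -2.53 (SE 0.30, adjusted p = 0.0302 by limma). The droplet coat gene Plin2 was the retinoid-list gene with the highest mean with Yoda1, at 329 TPM, and Aldh1a2, another retinal dehydrogenase, with DMSO, at 384 TPM. Of 20 hepatic stellate cell markers, 17 were listed and 15 tested, and 2 were called higher by limma, the endothelin receptor gene Ednrb at 1.57 (SE 0.21) and Angptl6, a secreted angiopoietin-like protein, at 1.39 (SE 0.23). The same list summed to between 347 and 352 TPM with DMSO and between 313 and 330 TPM with Yoda1. Of 13 pericyte markers, 8 were tested and 0 were called by limma (3 at an unadjusted p under 0.05), and the adhesion gene Mcam had the smallest p, at -1.15 (SE 0.30, adjusted p = 0.114 by limma).

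Of the markers of other cell types, the epithelial gene Spp1, osteopontin, was higher with Yoda1 at 1.71 (SE 0.21, adjusted p = 0.0315 by limma), as was Msln, a mesothelial surface protein, at 0.96 (SE 0.11, adjusted p = 0.0285 by limma). The epithelial list had a median of 0.14, with 5 of 9 genes positive and 1 at an unadjusted p under 0.05, and the mesothelial list had a median of -0.40, with 3 of 6 positive and a lowest value of -1.56. Eln, the elastin gene of the portal fibroblast list, was lower at -2.56 (SE 0.39, adjusted p = 0.0415 by limma). With the preparation as a block, 3 activation genes were called lower, the hepatic stellate cell markers had 1 called higher and 1 lower, the retinoid list had 2 called lower, and the pericyte list had 1 called higher and 2 lower. The block also gave 1 filament gene called lower, 2 portal fibroblast genes called lower, 1 endothelial gene called in each direction and 0 mesothelial genes by limma. Without the block, none of the islet genes (0 of 6), acinar genes (0 of 9), leukocyte genes (0 of 5) or endothelial genes (0 of 7) was called by limma, with 2 endothelial genes and no other at an unadjusted p under 0.05. Their part in the members' values was not tested.

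Livers were sequenced and tabulated separately from the PSC cultures, so no test was made between them. Per length, Vim, Des, Pdgfra, Pdgfrb and Hand2 had lower means in livers than in PSCs, and Rgs5 and Reln had higher means. Rgs5 had the highest mean over the 8 livers, at 18.7 TPM, followed by Vim at 14.9 and Lrat at 10.7 TPM. Hand2, Reln, Pdgfrb and Des lay at 6.34, 5.79, 5.69 and 5.48 TPM, with Pdgfra at 2.34 and Gfap at 0.608 TPM. Ranges of all neighbours in this order overlapped, although Des exceeded Pdgfra and Pdgfra exceeded Gfap within each of the 8 livers. Reln, at the bottom of the members in PSCs, and Lrat, not listed there, had 421 to 1263 and 212 to 667 reads per liver library. Gfap had 4 to 30 reads.

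For some members, other annotated genes share their position. Hand2 overlaps the antisense gene AV026068 by 3251 bases, and the 8 livers held 577 counts on it against 783 on Hand2. Gfap overlaps the antisense gene Gm26668, with 21 counts against 134. Whether reads were assigned by strand is not given in the sources used here, so such reads cannot be told apart. For the other members, the overlapping genes held at most 12 counts in all 8 livers.

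All 9 members passed the filter on low counts, and the fitted mean in WT livers was above that in TRPV4-KO livers for each, by 0.54 to 1.25 on the log2 scale, but none passed the adjusted threshold. By edgeR's quasi-likelihood test over all 8 livers, 0 of 9 were called, where 0.291% of 15118 genes were called, and by DESeq2 2 were called, Reln and Rgs5, where 5.24% of all genes were. At an unadjusted p under 0.05 there were 5, namely Rgs5, Reln, Vim, Pdgfra and Pdgfrb, where 17.1% of all genes had such a p. Both WT livers lay above all 3 TRPV4-KO livers for 6 members, and 17.7% of all genes separated in that way. The median difference of the members was 0.84, against -0.01 over all genes tested.

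The largest differences were those of Rgs5 and Pdgfra. Rgs5 was at 56.8 and 44.2 CPM (counts scaled to the size of the library) in WT livers and at 17.0, 15.7 and 30.8 CPM in TRPV4-KO livers. Both WT livers lay above all TRPV4-KO livers, and the highest TRPV4-KO liver was replicate 3, which had Xist reads. The log2 difference was 1.25 (SE 0.36, adjusted p = 0.163 by edgeR). Pdgfra was at 19.5 and 11.4 CPM in WT livers and at 5.00, 3.76 and 10.7 CPM in TRPV4-KO livers. The lower WT liver and the highest TRPV4-KO liver were close to each other. The log2 difference of Pdgfra was 1.25 (SE 0.44, adjusted p = 0.215 by edgeR).

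Pdgfrb had 19.1 and 18.1 CPM in WT livers and 8.35, 5.83 and 13.7 CPM in TRPV4-KO livers, a log2 difference of 0.99 (SE 0.38, adjusted p = 0.24 by edgeR). Reln had 68.5 and 70.6 CPM against 37.9, 27.3 and 51.6 CPM, a log2 difference of 0.84 (SE 0.26, adjusted p = 0.178 by edgeR). For both genes the WT livers were nearly equal and the TRPV4-KO livers spread widely below them. Vim had 48.1 and 33.6 CPM against 24.03, 18.7 and 27.3 CPM, a log2 difference of 0.81 (SE 0.25, adjusted p = 0.18 by edgeR), also without overlap.

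Lrat, the retinoid-storing enzyme, had 41.3 and 26.2 CPM in WT livers and 14.3, 14.3 and 32.2 CPM in TRPV4-KO livers. TRPV4-KO replicate 3 lay between the WT livers, so the groups overlapped. The log2 difference was 0.73 (SE 0.41, adjusted p = 0.41 by edgeR). Des had 12.7 and 8.74 CPM against 5.06, 3.69 and 13.3 CPM, where TRPV4-KO replicate 3 was the highest of all 5, and its log2 difference was 0.54 (SE 0.48, adjusted p = 0.619 by edgeR). Hand2, at 6.50 and 6.82 against 4.62, 2.66 and 6.08 CPM, did not overlap, with a log2 difference of 0.58 (SE 0.40, adjusted p = 0.505 by edgeR). Gfap, at 1.86 and 0.991 against 0.569, 0.259 and 1.22 CPM, overlapped, with a log2 difference of 1.04 (SE 0.61, adjusted p = 0.429 by edgeR). With a library left out the difference of Gfap ranged from 0.54 to 1.76, that of Des from 0.22 to 1.30, that of Lrat from 0.39 to 1.24 and that of Hand2 from 0.31 to 0.87.

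**Figure D3:**
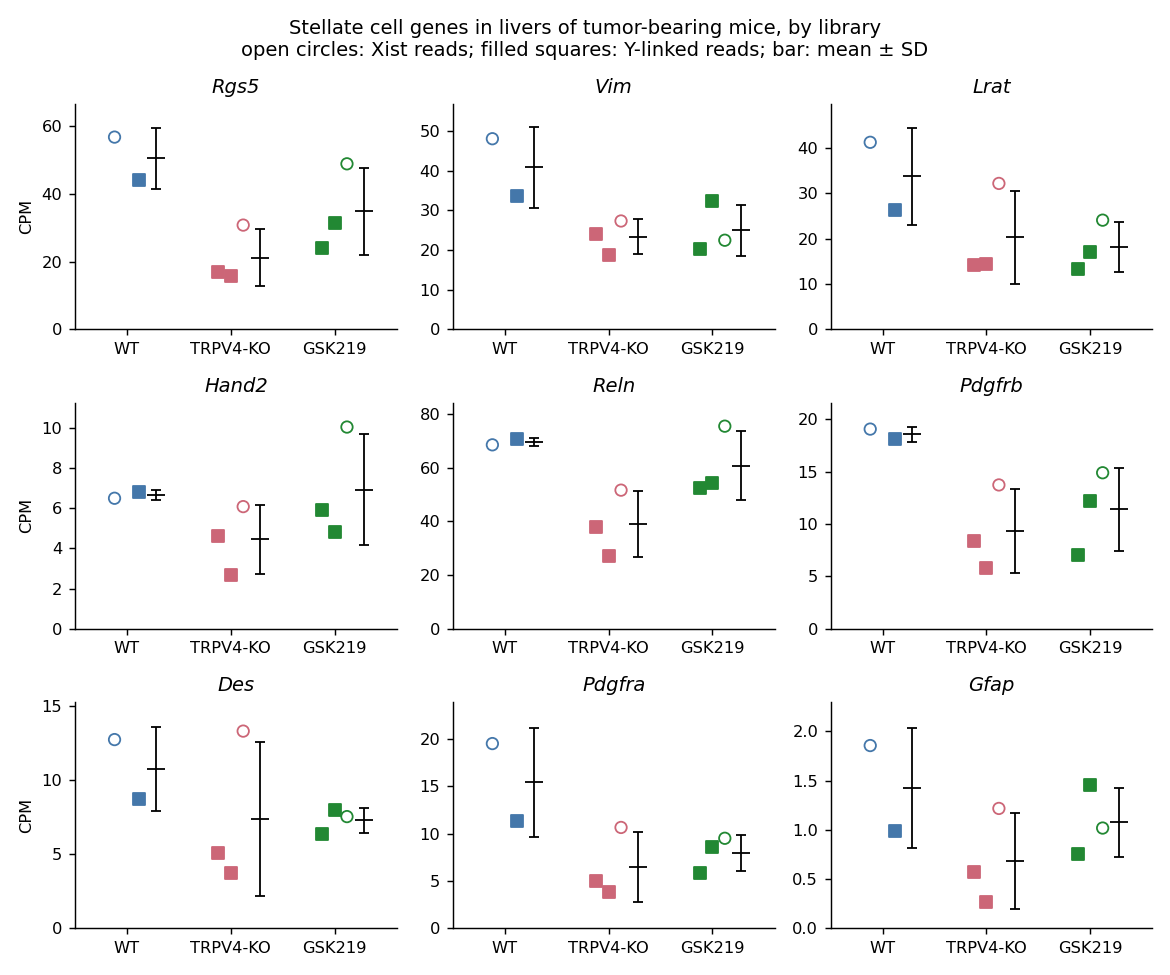
CPM (y axis, linear, from 0) of the 9 members in WT (n = 2), TRPV4-KO (n = 3) and GSK219 (n = 3) livers. Open circles are livers with Xist reads, filled squares livers with Y-linked reads, and bars give mean ± SD. In TRPV4-KO livers the open circle was the highest point for each of the 9 genes.

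The number of calls changed without TRPV4-KO replicate 3. Without that library, 5 members were called higher in WT by edgeR, namely Rgs5 (log2 difference 1.63, adjusted p = 0.0338), Pdgfra (1.82, 0.0288), Pdgfrb (1.39, 0.0475), Reln (1.10, 0.0319) and Des (1.30, 0.0332), where 8.64% of all genes tested were called. Without any other single WT or TRPV4-KO library, 0 members were called by edgeR. With a term for Xist against Y-linked reads in the fit, 2 members were called, Rgs5 (log2 difference 1.19, SE 0.16, adjusted p = 0.0151 by edgeR) and Pdgfra (1.17, SE 0.26, adjusted p = 0.0495 by edgeR), where 3.54% of all genes were. Among livers with Y-linked reads, 1 WT and 2 TRPV4-KO, all 9 members were higher in WT, by 0.65 to 1.43 on the log2 scale, as were 50.1% of all genes. Among livers with Xist reads, with 1 library a group and no test, 8 of 9 were higher in WT, with log2 differences between -0.06 for Des and 0.88 for Pdgfra and Rgs5, and 50.02% of all genes were higher in WT.

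The sex reads moved with the members as well. Fitted within the 3 groups, livers with Xist reads had higher means than livers with Y-linked reads for all 9 members. Lrat was called, with a log2 difference of 0.85 (SE 0.13, adjusted p = 0.0132 by edgeR), and so was Rgs5, with 0.72 (SE 0.13, adjusted p = 0.0229 by edgeR), where 3.47% of all genes tested were called. For Rgs5 the adjusted p rose to between 0.0663 and 0.123 without any of the 3 TRPV4-KO livers, and was 0.0776 without GSK219 replicate 3. For Lrat it was 0.0656 without TRPV4-KO replicate 3. Vim had the smallest difference, 0.20 (SE 0.20, adjusted p = 0.60 by edgeR). In each of the 3 groups the liver with Xist reads was the highest for Lrat, Pdgfra, Pdgfrb and Rgs5, 4 of 9 members, and 16.2% of all genes showed that order. With 1 such liver a group, sex and any other property of those 3 mice cannot be told apart.

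Livers of GSK219 mice were compared with the same 2 WT livers, so the 2 comparisons share their controls. By edgeR, 0 members were called, where 0% of 15118 genes were called, and 1242 genes (8.22%) had an unadjusted p under 0.05. By DESeq2 0 members and 108 genes (0.699%) were called. Of the members, 1 had an unadjusted p under 0.05 by edgeR, Vim. With the sex term 5 had such a p, as had 11.5% of all genes. With the replicate number as a block 6 had, as had 13.0% of all genes, and 0 members were called in either fit. WT livers lay above all GSK219 livers for 5 members, Des, Vim, Lrat, Pdgfra and Pdgfrb, and 15.6% of all genes separated in that way. The median difference of the 9 members was 0.56.

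Lrat was at 13.3, 17.0 and 24.1 CPM in GSK219 livers, all below the WT values of 41.3 and 26.2, with a log2 difference, WT minus GSK219, of 0.89 (SE 0.41, adjusted p = 0.632 by edgeR). Pdgfra was at 5.85, 8.58 and 9.50 CPM, a log2 difference of 0.95 (SE 0.44, adjusted p = 0.632 by edgeR). Vim was at 20.2, 32.3 and 22.5 CPM, a log2 difference of 0.71 (SE 0.25, adjusted p = 0.539 by edgeR). For these 3 genes the GSK219 livers lay below both WT livers, though Vim in GSK219 replicate 2 came close to WT replicate 2. Pdgfrb, at 7.05, 12.2 and 14.9 CPM, differed by 0.70 (SE 0.38, adjusted p = 0.693 by edgeR), and Des, at 6.36, 7.97 and 7.53 CPM, by 0.56 (SE 0.48, adjusted p = 0.852 by edgeR).

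The other 4 members overlapped between WT and GSK219 livers. Reln was at 52.6, 54.1 and 75.5 CPM with a log2 difference of 0.20 (SE 0.26, adjusted p = 0.919 by edgeR), and GSK219 replicate 3 was above both WT livers. Rgs5 was at 24.2, 31.4 and 48.9 CPM with a log2 difference of 0.54 (SE 0.36, adjusted p = 0.775 by edgeR). Hand2 was at 5.92, 4.83 and 10.0 CPM and was the only member with a negative difference, -0.06 (SE 0.40, adjusted p = 0.988 by edgeR), which ranged from -0.26 to 0.31 when a library was left out. Gfap was at 0.755, 1.45 and 1.02 CPM with a difference of 0.40 (SE 0.60, adjusted p = 0.934 by edgeR).

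**Figure D4:**
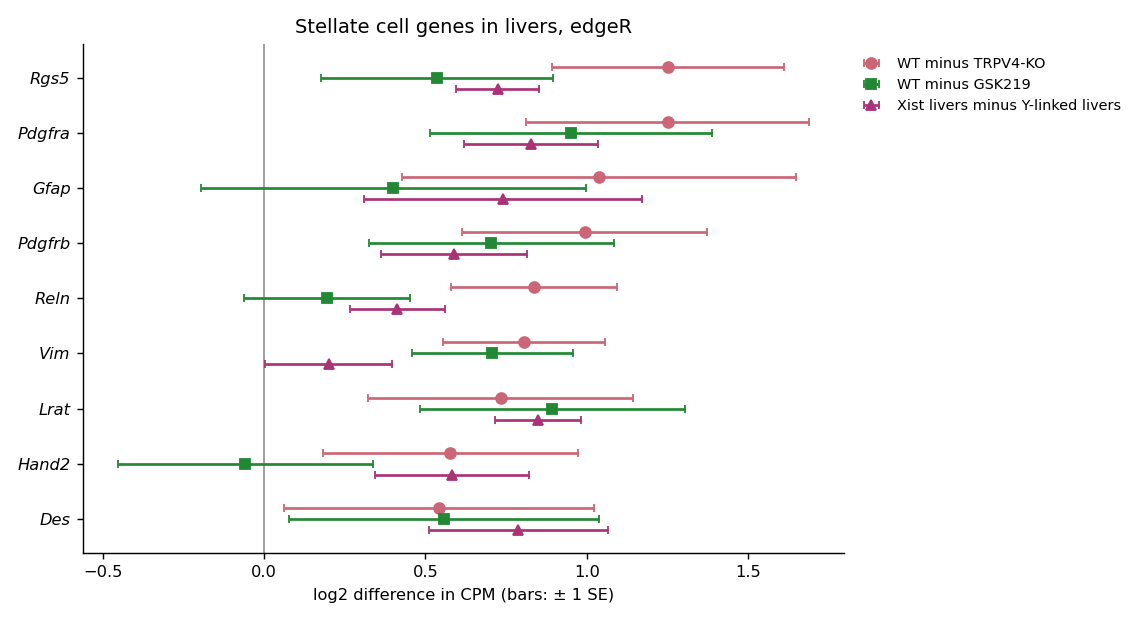
Log2 differences in CPM of the 9 members by edgeR (x axis), for WT minus TRPV4-KO, WT minus GSK219, and livers with Xist reads minus livers with Y-linked reads. Bars are ± 1 SE. All circles and triangles lay above 0, and the squares lay above 0 except that of Hand2.

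TRPV4-KO and GSK219 livers were compared directly. By edgeR 0 members were called, where 0.106% of all genes were, and 1 member, Reln, had an unadjusted p under 0.05, as had 6.12% of all genes. Reln was lower in all 3 TRPV4-KO livers than in all 3 GSK219 livers, as were 4.35% of all genes, with a log2 difference, TRPV4-KO minus GSK219, of -0.64 (SE 0.23, adjusted p = 0.728 by edgeR). Rgs5 followed with -0.72 (SE 0.33, adjusted p = 0.847 by edgeR), and the groups overlapped. The differences of the remaining members lay between -0.64, for Gfap and Hand2, and 0.16 for Lrat.

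The other stellate cell lists were read in the same fits. Of 20 hepatic stellate cell markers tested, 0 were called between WT and TRPV4-KO livers by edgeR, 5 had an unadjusted p under 0.05 and 18 were higher in WT, with a median of 0.87. With the sex term 2 of 20 were called higher in WT and 9 had an unadjusted p under 0.05. Cygb, a globin of stellate cells, had the smallest p, with a log2 difference of 1.17 (SE 0.21, adjusted p = 0.0766 by edgeR), followed by Adamtsl2, a matrix protein, at 1.16 (SE 0.24, adjusted p = 0.101 by edgeR). Their summed level was 721 to 1153 TPM in WT, 391 to 748 TPM in TRPV4-KO and 412 to 782 TPM in GSK219 livers, and Steap4, a metalloreductase, was the highest in each group. Between WT and GSK219 livers 0 of 20 were called by edgeR, 5 had an unadjusted p under 0.05, and the median was 0.38, again with Cygb first at 1.00 (SE 0.21, adjusted p = 0.391 by edgeR).

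Of the activation list, 12 genes were tested, and WT livers had the higher fitted mean for all 12 against both other groups, with medians of 0.88 and 0.75. None was called by edgeR (0 of 12 in both, with 5 and 6 at an unadjusted p under 0.05). Tgfb1, a growth factor that activates stellate cells, had 0.90 against TRPV4-KO (SE 0.17, adjusted p = 0.0898 by edgeR) and Col3a1 1.85 (SE 0.45, adjusted p = 0.136 by edgeR). Retinoid genes stood at medians of -0.13 and 0.02 over 18 tested, with 0 called by edgeR and 6 and 3 at an unadjusted p under 0.05. Rbp4, the retinol carrier made by hepatocytes, led that list's level, at 2907 TPM in WT and 4403 TPM in TRPV4-KO livers. Of the quiescence transcription factors, 0 of 12 were called by edgeR in either comparison, with medians of 0.17 and 0.24. Of the PDGF ligands, 0 of 4 were called, and against TRPV4-KO Pdgfc had 1.16 (SE 0.33, adjusted p = 0.157 by edgeR) and Pdgfb 0.89 (SE 0.30, adjusted p = 0.201 by edgeR).

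Pericyte markers had a median of 0.80 against TRPV4-KO and 0.30 against GSK219 livers, with 0 of 9 called by edgeR in both and 3 and 1 at an unadjusted p under 0.05. With the sex term 2 of 9 were called higher in WT against TRPV4-KO livers, as were 1 of 12 activation genes and 1 of 9 RGS genes, and 1 RGS gene was called lower. Of the RGS genes other than Rgs5, 0 of 9 were called, with medians of 0.80 and 0.68, and Rgs1, a lymphocyte gene, had 2.34 against TRPV4-KO (SE 0.54, adjusted p = 0.115 by edgeR). Medians of the list of Hand2 partners and neighbours were 0.25 and 0.16 over 7 tested. Those of filament and linker genes were 0.03 and 0.23 over 12 tested, with 0 called in either list. Of the reelin receptors and adaptor, 2 were tested and 0 were called by edgeR, 1 with an unadjusted p under 0.05. These were Dab1 at 3.76 (adjusted p = 0.256 by edgeR) and Vldlr at -2.02 (SE 1.93, adjusted p = 0.654 by edgeR) against TRPV4-KO. In TRPV4-KO livers the list summed to 0.190 to 7.16 TPM, and Vldlr took 2.50 of the mean of 2.55 TPM. Dab1 was thus barely detected there, and its difference is not precise.

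Markers of other liver cells were measured in the same livers. The 10 macrophage and leukocyte markers summed to between 881 and 1082 TPM in WT, 237 and 570 TPM in TRPV4-KO and 245 and 702 TPM in GSK219 livers. Their median differences were 1.25 and 1.09, with 8 and 6 of 10 at an unadjusted p under 0.05 and 0 called by edgeR. With the sex term, 4 of 10 were called higher in WT against TRPV4-KO livers and 0 against GSK219, and 1 of 9 endothelial genes was called higher and 1 of 7 hepatocyte genes lower against TRPV4-KO. Hepatocyte markers, led by Alb, summed to between 59029 and 74132 TPM in WT, 79612 and 106778 TPM in TRPV4-KO and 84878 and 97254 TPM in GSK219 livers. Endothelial markers had medians of 0.18 and 0.20, and sums of 216 to 255, 139 to 233 and 152 to 247 TPM. The duct or tumor epithelial list summed to 122 to 167 TPM in WT, 94.4 to 114 TPM in TRPV4-KO and 93.9 to 136 TPM in GSK219 livers. Its medians were 0.36 and 0.54, and 0 of 8 were called by edgeR (1 and 2 at an unadjusted p under 0.05, 1 called higher against TRPV4-KO with the sex term). The portal fibroblast list summed to 10.6 to 19.9, 5.67 to 11.5 and 7.75 to 11.7 TPM, with medians of 0.55 and 0.81 and 0 of 6 called by edgeR (2 and 1 at an unadjusted p under 0.05). The part of these cell types in the members' differences was not tested. The islet markers were at 0 in all 8 livers, and the acinar list summed to at most 27.2 TPM.

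**Figure D5:**
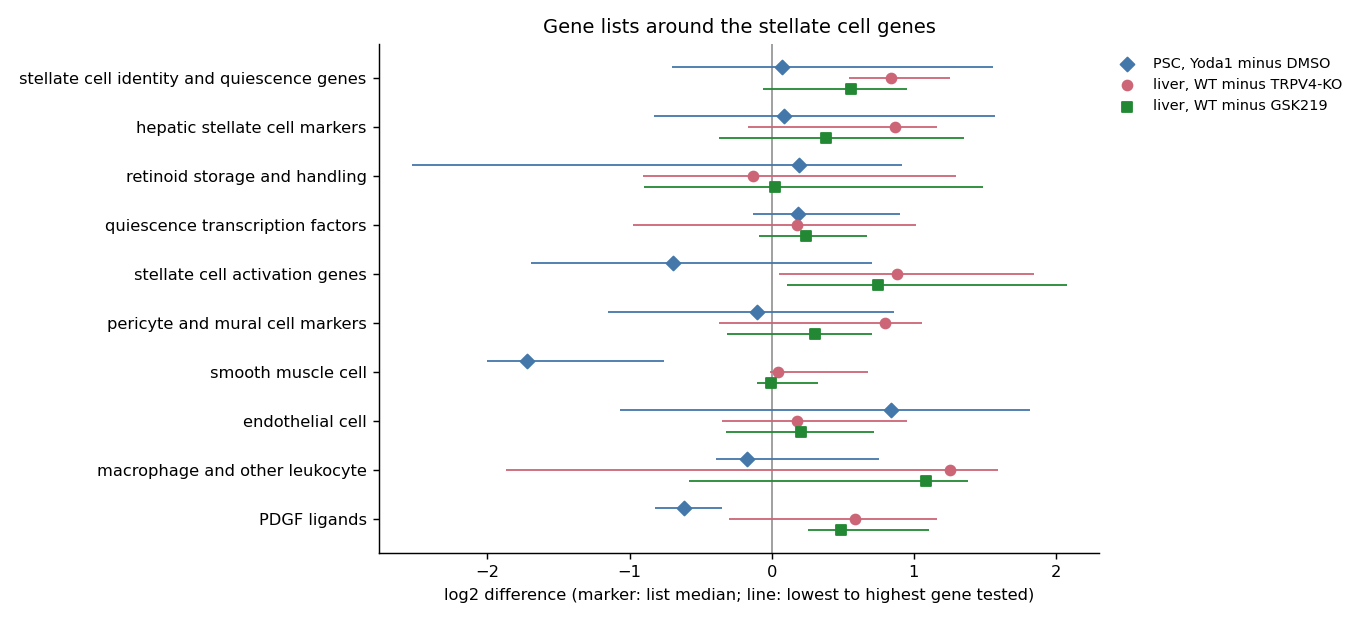
Log2 differences of 10 gene lists (x axis) in PSCs, Yoda1 minus DMSO, and in livers, WT minus TRPV4-KO and WT minus GSK219. Markers are medians and lines run from the lowest to the highest gene tested. The activation list had a median below 0 in PSCs (-0.69) and above 0 in livers (0.88 and 0.75), and the macrophage and leukocyte list had the highest liver medians (1.25 and 1.09).

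The pattern of Lrat over the 8 livers was set beside all genes with a mean of at least 1 CPM. The 5 most alike, by Pearson's r of log2 CPM, were Mertk (0.99), Gm20559 (0.99), Shisa5 (0.99), Sp110 (0.98) and St6galnac2 (0.98), with Spearman's rho between 0.88 and 0.98. Of the members, Pdgfra had the highest r with Lrat, 0.92, at place 245 of 13214 genes, followed by Pdgfrb with 0.88 and Des with 0.87. Hand2 had the lowest, 0.55, and Reln had 0.65. Points share the depth and the sex reads of their livers, so these values are a description.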

How the data were processed

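Libraries were grouped by the conditions in their labels. For livers, the authors deposited raw counts of reads per gene, after trimming with Trim Galore and alignment with HISAT2 2.0.5 according to the submitters' processing notes. Coordinates match GRCm38, and 7 columns of counts that match no described sample were not used. For PSCs, the authors deposited a normalized signal per gene, and 100% of the values were whole multiples of a step per library (tolerance 0.1 read), so reads were recovered. For DMSO replicate 3 the step was 1.009, so near to 1 that its recovery is less certain. Deposited log2 fold changes and p-values of the authors' own comparison were not used.

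PSC values were tested with limma 3.58.1 on log2(value + 1), after removal of genes that did not reach 10 in 3 or more libraries. Liver counts were tested in R 4.3.3 with edgeR 4.0.16 (TMM, minimum count 10, robust quasi-likelihood, all 8 livers). Genes were called at a Benjamini-Hochberg adjusted p under 0.05. Column names mark the preparation, and deviations of libraries of the same preparation correlated at 0.43, 0.26 and 0.53 across genes. Replicate pairs differed by more than sampling noise (chi-square per degree of freedom 7.99 to 123), and the labels call liver replicates biological without naming the mice, so p-values measure the spread between these samples. Promoter windows came from RefSeq, matched by symbol for 8 members. The steps were run on simulated data that had no pairing, no sex effect and less spread between replicates than the liver fit. That run does not measure the accuracy of the calls made here. Alternatives included DESeq2 1.42.0, other pseudocounts (0.1 and 10), no filter, the replicate block and each library left out. The edgeR fit with the block, limma with a trend and the sex comparison were chosen after seeing the data. The text names all 9 members, at most 4 genes of each list by smallest p, the highest genes of marker lists, and the 5 genes most like Lrat. Plin2 and Aldh1a2 were named for their level, and Epcam, Krt18, Adgre1 and Clec4f were chosen after their values were seen. The members and lists were chosen with earlier results of these data known.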

Additional observations from a re-analysis of the deposited data

How the results depend on the processing

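In PSCs, 355 genes and 1 member were called. Preparation numbers pair the libraries, and with the replicate block 605 genes and 2 members were called. With a log2 fold change over 1 as well, 153 genes and 0 members were called. On recovered reads, edgeR called 694 genes and 2 members, DESeq2 1570 and 3, and edgeR with the replicate block 2739 and 3. limma with a trend called 705 genes and 2 members, and 2760 and 4 with the block. With each library left out, 0 to 116 genes and 0 to 1 members were called. The differences of Hand2 and Des ranged from -0.15 to 0.012 and from -0.12 to 0.29. Pdgfra and Pdgfrb kept their direction under every alternative, and the difference, Yoda1 minus DMSO, of the log2 ratio of Pdgfrb to Pdgfra ranged from -1.65 to -1.21 with a library left out.

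Between WT and TRPV4-KO livers (44 genes, 0 members), DESeq2 called 782 genes and 2 members, no filter 198 genes, only the groups compared 20 genes, and the sex term 535 genes and 2 members. Leaving out a library gave 3 to 1291 genes and 0 to 5 members. Liver replicate numbers share only a number, with correlations of same-numbered livers from -0.48 to 0.58, and there is no WT replicate 3. With the replicate block, 531 genes and 2 members, Reln and Rgs5, were called, as were 5 of 20 hepatic stellate cell, 2 of 9 pericyte and 6 of 10 macrophage and leukocyte markers. Against GSK219 (0 genes), DESeq2 called 108, no filter 9, the block 9, only the groups compared 2 and the sex term 4 genes, and leaving out a library 0 to 2. There Hand2 was 0.30 with the block and ranged from -0.26 to 0.31, and Gfap from -0.12 to 0.78, with a library left out. Pdgfra ranged from 0.50 to 1.29, Lrat from 0.52 to 1.18, Vim from 0.42 to 0.94 and Pdgfrb from 0.45 to 0.95. The range of Des was 0.26 to 0.80, that of Rgs5 0.33 to 0.86 and that of Reln 0.10 to 0.38. Between TRPV4-KO and GSK219 (16 genes), DESeq2 called 120, no filter 44 and the sex term 45 genes, and leaving out a library 8 to 141. Des there was -0.19 with the block, -0.0064 with only the groups compared and -0.14 with the sex term. With a library left out, Des ranged from -0.74 to 0.34, Lrat from -0.35 to 0.42 and Vim from -0.23 to 0.13. Rgs5 ranged from -1.09 to -0.39, Gfap from -1.36 to -0.26 and Hand2 from -0.93 to -0.27. The range of Reln was -0.90 to -0.44, that of Pdgfra -0.87 to -0.03 and that of Pdgfrb -0.68 to -0.04. For Xist against Y-linked reads (524 genes, 2 members), no filter called 871 genes, DESeq2 981, a log2 fold change over 1 called 289 genes and 0 members, and leaving out a library 200 to 769 genes and 0 to 3 members. The cause of these changes was not tested. With 2 WT livers, and 4 to 30 reads on Gfap and 5 to 38 on Reln in PSCs, differences of these genes were measured with little precision, and intervals cover these libraries only.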
